A study of Mus musculus with 12 samples.

Results

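Hox genes encode the homeodomain transcription factors that give cells a position along the body axis. All genes of the deposited expression table whose symbol is Hoxa, Hoxb, Hoxc or Hoxd followed by a number were taken, which gave 39 of 24098 genes, and all 39 enter every count. The Hoxa cluster holds 11 of them, Hoxb 10, Hoxc 9 and Hoxd 9. They were measured by RNA-Seq in 12 libraries from a course of reprogramming in which mouse embryonic fibroblasts (MEFs), carrying GFP at the Oct4 gene, were infected with retroviruses for Oct4, Sox2, Klf4 and c-Myc (OSKM). D0 was the MEF library and D3 was collected, unsorted, 3 days after induction. On days 6 and 9 the cells were sorted on Thy-1, a surface protein of fibroblasts, into negative (D6T-, D9T-) and positive (D6T+, D9T+) cells. On days 12 and 16 they were sorted on SSEA-1, a surface sugar of pluripotent cells, into positive (D12S+, D16S+) and negative (D12S-, D16S-) cells. Thy-1- and SSEA-1+ cells are the fractions on the route to pluripotency, Thy-1+ and SSEA-1- cells the fractions off it. The end points were fully reprogrammed iPSCs and the mouse embryonic stem cell line ESD3 (mESCs). The MEFs came from mid-gestation embryos, and the parts of the embryo used are not given in the sources used here. The RNA was polyadenylated. The labels put D0 in a serum medium and the infected cells, the iPSCs and the mESCs in a feeder-free medium with serum replacement, LIF, bFGF, ascorbic acid and CHIR99021, an activator of Wnt signalling. The methods also name serum and serum-replacement media for these cells, so which medium a library had is uncertain. Where the medium differed from that of D0, infection and medium cannot be told apart in the infected cells.

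In the embryo the Hox genes lie in 4 clusters, numbered so that genes of the same number (paralogs) in different clusters are the most alike. Low-numbered genes act in the hindbrain and neck, middle numbers in the trunk, and high numbers in the lumbar and tail region and in the outer parts of the limb. Fibroblasts keep the combination of Hox genes of the place they came from, and this combination is called their positional code. In pluripotent cells the clusters are held silent by Polycomb complexes while remaining inducible, for instance by retinoic acid.

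In the deposited table the clusters lay at chr6:52105366-52210874 (Hoxa), chr11:96055675-96229567 (Hoxb), chr15:102751562-102867283 (Hoxc) and chr2:74506367-74603199 (Hoxd) of the mouse build mm9. Each of the 39 loci overlapped the GENCODE M1 gene of its name. Hoxa3, Hoxa4, Hoxa5 and Hoxa6 were given the same locus, as were Hoxd3 and Hoxd4, Hoxc5 and Mir615, and Hoxa11 and its antisense transcript Hoxa11os. How reads were divided within such a locus is not given in the sources used here, so the levels of these 8 Hox genes are uncertain. The authors kept only reads that matched 1 locus, which can lower the level of a paralog wherever its sequence is repeated.

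The 250 bases before the start of 22 of the 39 genes were found in a RefSeq promoter table (GRCm38.p6). Their 24 promoters each matched mm9 at 1 place, and the coordinates given are those matches. The promoters shown belong to those of the 22 genes with the lowest (Hoxb8, Hoxa11) and the highest (Hoxd4, Hoxd9) difference between D16S- and D0, which carries the contrast among clusters described further on. CpG dinucleotides are in capitals.
Hoxb8, chr11:96142969-96143218, plus strand: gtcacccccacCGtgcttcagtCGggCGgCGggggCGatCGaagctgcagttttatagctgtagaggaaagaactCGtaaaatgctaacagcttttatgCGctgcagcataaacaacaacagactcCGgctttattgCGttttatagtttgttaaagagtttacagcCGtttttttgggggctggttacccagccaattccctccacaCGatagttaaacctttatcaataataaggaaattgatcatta
Hoxa11, chr6:52195810-52196059, minus strand: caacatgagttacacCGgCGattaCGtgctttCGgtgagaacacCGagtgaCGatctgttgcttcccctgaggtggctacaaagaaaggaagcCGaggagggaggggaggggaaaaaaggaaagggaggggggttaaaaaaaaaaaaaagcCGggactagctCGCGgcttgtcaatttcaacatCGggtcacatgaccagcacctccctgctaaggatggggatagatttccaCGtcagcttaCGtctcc
Hoxd4, chr2:74559785-74560034, plus strand: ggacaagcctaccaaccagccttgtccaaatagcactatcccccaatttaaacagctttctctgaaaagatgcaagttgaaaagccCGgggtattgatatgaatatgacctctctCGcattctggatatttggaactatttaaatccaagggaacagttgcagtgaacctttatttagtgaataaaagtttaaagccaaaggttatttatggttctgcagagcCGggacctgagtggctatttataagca
Hoxd9, chr2:74535570-74535819, plus strand: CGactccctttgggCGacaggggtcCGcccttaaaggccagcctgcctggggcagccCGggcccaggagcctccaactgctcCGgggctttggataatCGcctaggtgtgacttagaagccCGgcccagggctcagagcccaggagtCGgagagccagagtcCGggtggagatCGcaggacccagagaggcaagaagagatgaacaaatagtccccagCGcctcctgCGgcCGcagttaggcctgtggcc
Hoxb8, Hoxa11, Hoxd4 and Hoxd9 held 12, 13, 3 and 13 CpGs in these windows. The median was 12.5 CpGs over the 24 Hox promoters and 6 over 32851 promoters of the table, with a GC content of 58.6% and 52.4%. On both strands, the TATA box letters TATAAA were found in 16.7% of Hox promoters and 12.4% of all promoters, each motif being counted also where it overlapped another. The retinoic acid receptor half-site letters AGGTCA were found in 25% and 14%, and the Pbx-Hox letters TGATNNAT in 16.7% and 7.68%. With 24 Hox promoters, these shares rest on 4, 6 and 4 promoters.

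Expression was deposited as FPKM (fragments scaled to transcript length and library depth), which allows levels to be compared between genes. Each condition had 1 library, so there is no replicate error, no difference has a test, and folds describe these libraries. The deposited intervals started at 0 for 467 of the 468 Hox values, and their median half-width was 141% of the FPKM for values of at least 1 FPKM. How these intervals were modelled is not given in the sources used here. No Hox gene had intervals wholly apart between D0 and iPSCs, D16S+ or D16S-, and 140 of the 14178 genes kept, those that reached 1 FPKM in at least 1 library, had them between D0 and iPSCs. Differences of single Hox genes from D0 in these libraries are therefore within the deposited intervals, and what can be described is how members ran together. The numbers of reads are not given. Relative depth, read from the steps between low values, ranged from 0.967 (D9T+) to 1.56 (D6T-) times that of D0, and summed FPKM from 484968 (D16S+) to 648264 (D0). Of the marker genes, 8 fibroblast genes such as Col1a1 summed to 7269 FPKM in D0, 32.3 in D16S+, 414 in D16S- and 52.1 in iPSCs, and none was under 1 FPKM in D0. The 6 pluripotency genes listed, such as Nanog, summed to 2.11, 4674, 130 and 3423 FPKM in the same libraries. Muscle genes summed to 154 FPKM in D0, with Myog at 24.2 and Des at 54.7, 65.4 in D3 and between 7.52 and 29.6 in every later library and both lines. In bulk RNA, fewer cells of a type and less RNA per cell cannot be told apart, and this holds for every level below.

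MEFs carried a broad code that was strongest in the middle and posterior paralogs. In D0, 31 of the 39 genes were at 1 FPKM or more: 8 of 11 in Hoxa, 8 of 10 in Hoxb, 9 of 9 in Hoxc and 6 of 9 in Hoxd. The 39 levels summed to 218 FPKM, of which Hoxc gave 37.1%, Hoxb 32.2%, Hoxa 24% and Hoxd 6.68%. Paralogs 9 to 13 gave 49.7% of the sum, paralogs 4 to 8 gave 42.5% and paralogs 1 to 3 only 7.77%. The 5 highest levels were those of Hoxc6 (30.3 FPKM), Hoxc10 (22.7), Hoxb9 (21.7), Hoxa11 (17.1) and Hoxa10 (16.1). Genes of trunk, lumbar and limb positions thus stood together in D0. The posterior end of the code was low: paralog group 12 summed to 2.37 FPKM over 2 genes and group 13 to 6.21 over 4 genes, while group 6 summed to 43.4 over 3 genes and group 10 to 42.2 over 3 genes. Hoxb1 was listed at 0 in D0. Hoxb1, Hoxd1 and Hoxd12 were under 1 FPKM in all 12 libraries.

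**Figure D1:**
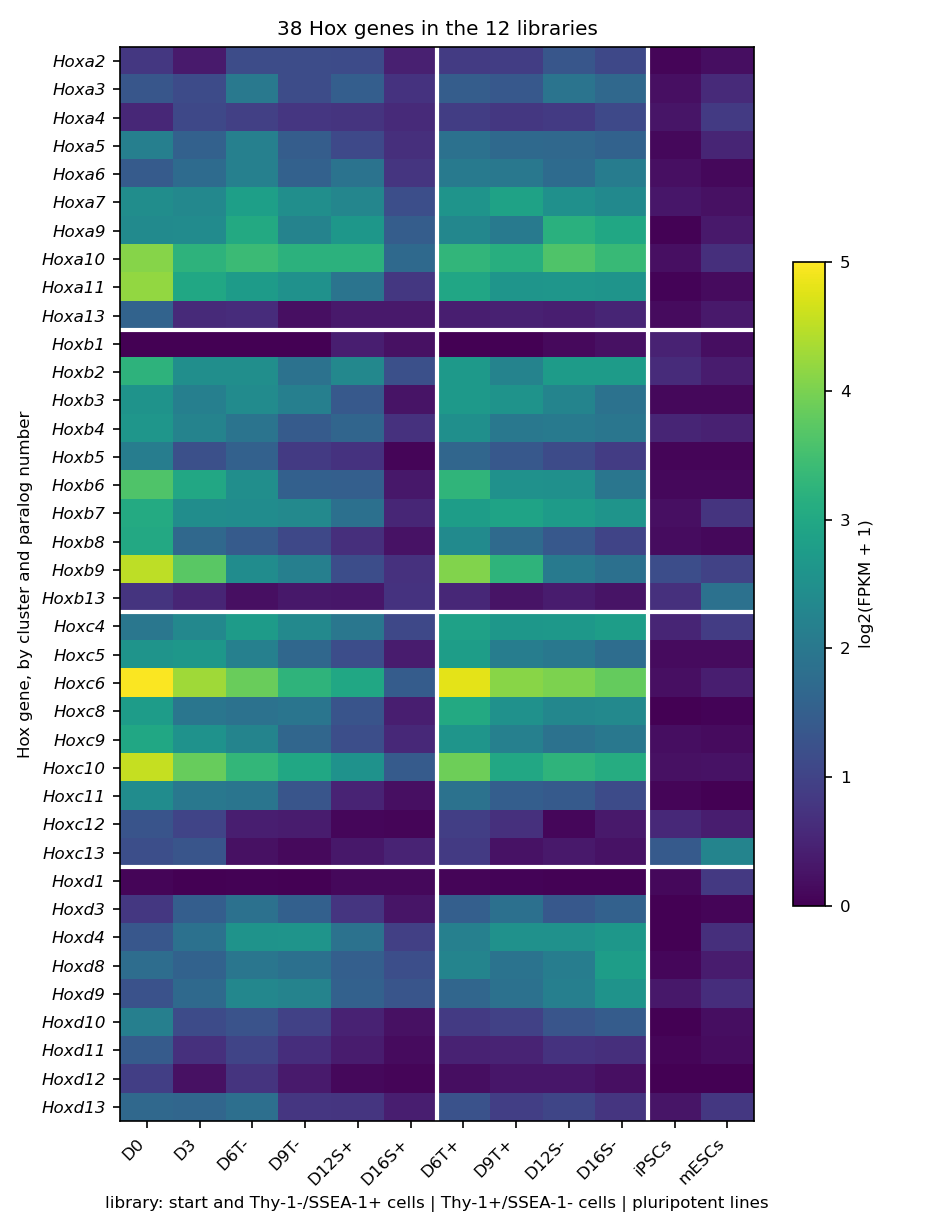
The heat map gives log2(FPKM + 1) of 38 of the 39 Hox genes (rows, by cluster and paralog number) in the 12 libraries (columns, 1 library each; white lines part clusters and kinds of library). The brightest cells are Hoxc6 in D0 (30.3 FPKM) and in D6T+ (26.8 FPKM), and the iPSC and mESC columns are dark but for a few genes such as Hoxc13.

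The code was lost in iPSCs across all 4 clusters. On the scale of log2(FPKM + 1), which understates folds of low genes, iPSCs held 20 of the 39 Hox genes at a level 4-fold or more below D0, where 9.2% of the 14178 genes kept were. None was 4-fold higher, where 6.19% were. All signed values and medians of differences that follow are on this log2 scale, and all levels are FPKM. The median difference was -2.05 over the 39 Hox genes and 0.03 over the genes kept, of which 36 are Hox genes. The 20 were 8 Hoxb, 6 Hoxc, 5 Hoxa genes and 1 Hoxd gene, Hoxd10 (-2.16). Hoxd levels were lower in D0 to begin with, which limits the fold this scale can show. At 2-fold, 28 genes were lower, where 21.6% of the genes kept were. In mESCs, which share D0 as the comparison, 18 genes were 4-fold lower than in D0, where 9.63% of the genes kept were. The count depends on D0 and the scale: against D3 in place of D0 it was 12, and with a pseudocount of 0.1 in place of 1 it was 32.

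Summed Hox FPKM gave the course of the loss. The sum was 218 FPKM in D0 and 139 in D3. On the route it was 132 in D6T-, 93 in D9T-, 73.3 in D12S+, 26.7 in D16S+ and 11.1 in iPSCs. Off the route it was 171 in D6T+, 126 in D9T+, 128 in D12S- and 121 in D16S-. The route libraries thus ran down step by step, while the off-route libraries of days 9, 12 and 16 stayed within a few FPKM of each other. In mESCs the sum was 20.4. Genes at 1 FPKM or more numbered 31 in D0, 24 in D12S+, 10 in D16S+, 29 in D16S- and 3 in each of the pluripotent lines. Fibroblast markers and Hox genes did not go down alike off the route: between D0 and D16S- their sum went from 7269 to 414 FPKM and the Hox sum from 217.7 to 120.5 FPKM.

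**Figure D2:**
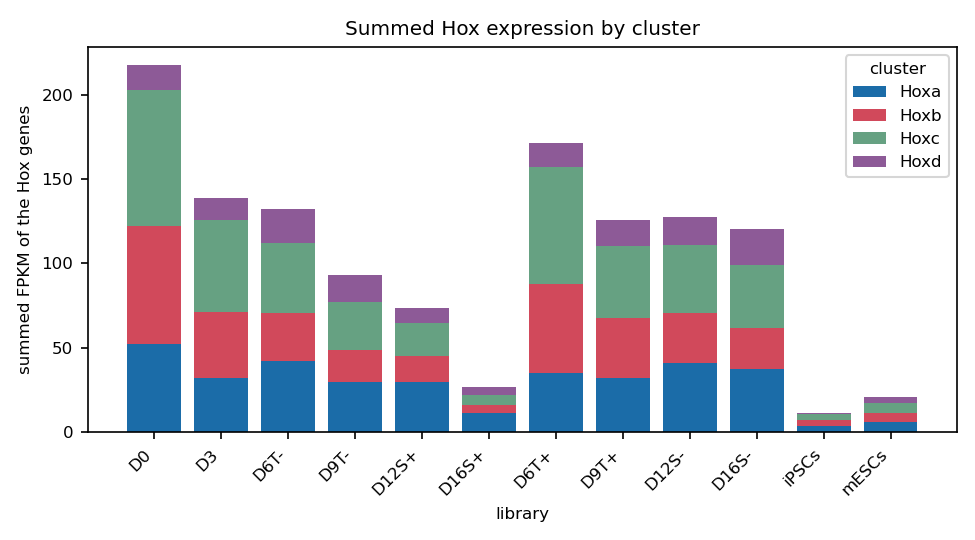
Stacked bars give the FPKM summed over the Hox genes of each cluster (y axis, linear from 0) in each of the 12 libraries (x axis, 1 library each, no error bars). The sum is 217.7 FPKM in D0, 26.7 in D16S+, 120.5 in D16S- and 11.1 in iPSCs, and the Hoxd share is wider in D16S- than in D0.

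Hoxc held the highest Hox level of D0. Hoxc6, a gene of the upper trunk, stood at 30.3 FPKM in D0, 18.5 in D3, 13.5 and 26.8 in D6T- and D6T+, 8.51 and 16.2 in D9T- and D9T+, 6.87 and 15.1 in D12S+ and D12S-, 1.72 and 13.1 in D16S+ and D16S-, 0.146 in iPSCs and 0.34 in mESCs. It was the highest Hox gene of D0 and both lines held almost none of it, a log2 difference of -4.77 between iPSCs and D0 and -3.52 between D16S+ and D0. Hoxc10, which acts in the lumbar cord and hindlimb, stood at 22.7 FPKM in D0, 13.2 in D3, 8.94 and 13.9 in D6T- and D6T+, 6.86 and 6.99 in D9T- and D9T+, 4.86 and 8.54 in D12S+ and D12S-, 1.7 and 7.55 in D16S+ and D16S-, 0.167 in iPSCs and 0.177 in mESCs. Its level was lower in every library after D0, and the iPSC difference was -4.34. Hoxc9, which marks thoracic levels, stood at 6.91 FPKM in D0, 4.84 in D3, 3.74 and 5.08 in D6T- and D6T+, 2.15 and 3.54 in D9T- and D9T+, 1.3 and 2.7 in D12S+ and D12S-, 0.483 and 3.02 in D16S+ and D16S-, 0.134 in iPSCs and 0.114 in mESCs. Hoxc8, a gene of brachial and thoracic levels, stood at 5.8 FPKM in D0, 2.92 in D3, 2.67 and 7.26 in D6T- and D6T+, 2.83 and 4.79 in D9T- and D9T+, 1.45 and 3.95 in D12S+ and D12S-, 0.342 and 4.11 in D16S+ and D16S-, 0 in iPSCs and 0.0401 in mESCs. Hoxc8 peaked in D6T+, above D0, while Hoxc9 was highest in D0, and in iPSCs Hoxc8 was listed at 0. Hoxc5, a neck-level gene, stood at 5.01 FPKM in D0, 5.3 in D3, 3.5 and 5.9 in D6T- and D6T+, 2.17 and 3.36 in D9T- and D9T+, 1.27 and 3 in D12S+ and D12S-, 0.306 and 2.43 in D16S+ and D16S-, 0.114 in iPSCs and 0.103 in mESCs. Hoxc4, its neighbour of lower number, stood at 2.93 FPKM in D0, 4.07 in D3, 5.69 and 6.27 in D6T- and D6T+, 4.09 and 5.3 in D9T- and D9T+, 2.96 and 5.34 in D12S+ and D12S-, 1.13 and 5.89 in D16S+ and D16S-, 0.435 in iPSCs and 0.85 in mESCs. Hoxc4 was above its D0 level in each library up to D12S+ and in both SSEA-1- libraries, so it did not run with Hoxc6 to Hoxc11. Its neighbour Hoxc5 was below D0 in D6T- and in every library from day 9 on. The other Hoxc genes stayed under 5 FPKM. Hoxc11, a posterior gene, ranged from 4.42 FPKM in D0 to 0 in mESCs, and Hoxc12 from 1.47 in D0 to 0.0436 in D16S+.

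Hoxb levels were below D0 for 9 of 10 genes in D3, D6T- and D16S- alike, the 10th, Hoxb1, being at or near 0. Hoxb9, which patterns the thoracic skeleton, stood at 21.7 FPKM in D0, 12.3 in D3, 4.42 and 15.6 in D6T- and D6T+, 3.48 and 8.55 in D9T- and D9T+, 1.26 and 3.15 in D12S+ and D12S-, 0.631 and 2.57 in D16S+ and D16S-, 1.27 in iPSCs and 0.976 in mESCs. It had the lowest difference of the 39 genes in D16S- (-2.67) and in D16S+ (-3.80), and it was the only Hoxb gene at 1 FPKM in iPSCs. Hoxb6, a trunk gene, stood at 11.4 FPKM in D0, 7.01 in D3, 4.52 and 8.68 in D6T- and D6T+, 1.87 and 4.78 in D9T- and D9T+, 1.85 and 4.68 in D12S+ and D12S-, 0.259 and 2.91 in D16S+ and D16S-, 0.0718 in iPSCs and 0.0763 in mESCs. Hoxb8, a trunk gene also used in blood progenitors, stood at 7.07 FPKM in D0, 2.23 in D3, 1.7 and 4.24 in D6T- and D6T+, 1.13 and 2.3 in D9T- and D9T+, 0.601 and 1.59 in D12S+ and D12S-, 0.183 and 1.05 in D16S+ and D16S-, 0.118 in iPSCs and 0.0713 in mESCs. Hoxb6 and Hoxb8 were both below their D0 level in every later library, and Hoxb8 was already 2-fold lower in D3 (-1.32). Hoxb7, their neighbour, stood at 7.37 FPKM in D0, 4.48 in D3, 4.37 and 5.9 in D6T- and D6T+, 4.08 and 6.45 in D9T- and D9T+, 2.61 and 5.71 in D12S+ and D12S-, 0.46 and 5.02 in D16S+ and D16S-, 0.15 in iPSCs and 0.679 in mESCs. It was near its D3 level through D9T-, above it in all off-route libraries, and lower in D12S+ and D16S+. Hoxb2, which acts in the hindbrain, stood at 8.45 FPKM in D0, 4.51 in D3, 4.57 and 5.49 in D6T- and D6T+, 2.68 and 3.72 in D9T- and D9T+, 4.03 and 5.7 in D12S+ and D12S-, 1.33 and 5.72 in D16S+ and D16S-, 0.54 in iPSCs and 0.302 in mESCs. Hoxb3, another hindbrain gene, stood at 4.91 FPKM in D0, 3.49 in D3, 4.29 and 5.5 in D6T- and D6T+, 3.46 and 4.91 in D9T- and D9T+, 1.64 and 3.78 in D12S+ and D12S-, 0.197 and 2.7 in D16S+ and D16S-, 0.0794 in iPSCs and 0.0702 in mESCs. Hoxb4, a neck-level gene that also acts in blood stem cells, stood at 5.22 FPKM in D0, 3.71 in D3, 2.8 and 4.59 in D6T- and D6T+, 1.71 and 3.02 in D9T- and D9T+, 2.08 and 3.13 in D12S+ and D12S-, 0.628 and 2.9 in D16S+ and D16S-, 0.433 in iPSCs and 0.368 in mESCs. Hoxb2 and Hoxb3 were both lower in D16S+ than in any earlier library, and Hoxb3 was highest in D6T+. Hoxb5 ranged from 3.34 FPKM in D0 to 0.0481 in iPSCs.

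Within Hoxa, Hoxa11 and Hoxa13 were 2-fold below D0 in D3, while Hoxa7 and Hoxa9 were not 2-fold below D0 in any library up to day 12. Hoxa11, which shapes the forearm and lower leg, stood at 17.1 FPKM in D0, 6.86 in D3, 5.72 and 6.8 in D6T- and D6T+, 4.74 and 5.1 in D9T- and D9T+, 2.79 and 5.18 in D12S+ and D12S-, 0.753 and 5.02 in D16S+ and D16S-, 0.0392 in iPSCs and 0.104 in mESCs. It was 2-fold lower from D3 on (-1.21) and its log2 difference in iPSCs was -4.13. Its antisense transcript Hoxa11os, given the same locus, stood at 8.59 FPKM in D0, 4.93 in D3, 7.29 and 5.54 in D6T- and D6T+, 4.94 and 5.42 in D9T- and D9T+, 3.4 and 7.22 in D12S+ and D12S-, 0.826 and 5.58 in D16S+ and D16S-, 0 in iPSCs and 0.369 in mESCs. Hoxa11os did not follow Hoxa11 from D0 to D6T-, but the library kit is described as stranded in the labels and only as an RNA kit in the methods, and whether counting used strand is not given, so reads of the pair may be mixed. Hoxa10, a gene of lumbar vertebrae and the uterus, stood at 16.1 FPKM in D0, 8.34 in D3, 9.56 and 8.85 in D6T- and D6T+, 8.28 and 7.76 in D9T- and D9T+, 8.3 and 11.3 in D12S+ and D12S-, 2.29 and 9.35 in D16S+ and D16S-, 0.146 in iPSCs and 0.591 in mESCs. It ranged only from 7.76 to 11.3 FPKM in the libraries of days 3 to 12, and on day 16 was in that range only in the SSEA-1- cells. Hoxa9, used in limbs and blood progenitors, stood at 4.23 FPKM in D0, 4.31 in D3, 7.23 and 4 in D6T- and D6T+, 3.72 and 3.13 in D9T- and D9T+, 5.29 and 7.98 in D12S+ and D12S-, 1.77 and 6.89 in D16S+ and D16S-, 0.0144 in iPSCs and 0.26 in mESCs. Hoxa7, a trunk gene, stood at 4.43 FPKM in D0, 4.07 in D3, 6.03 and 4.99 in D6T- and D6T+, 4.56 and 6.35 in D9T- and D9T+, 3.87 and 4.68 in D12S+ and D12S-, 1.31 and 4.18 in D16S+ and D16S-, 0.233 in iPSCs and 0.173 in mESCs. Along the route Hoxa7 was 2-fold below D0 from D16S+ on (-1.23), while Hoxa9 was at -0.91 in D16S+ and at -2.37 in iPSCs. The lines held at most 0.26 FPKM of either. The other Hoxa genes stayed under 5 FPKM. Hoxa13, which acts in digits and the urogenital tract, was at 2.03 FPKM in D0 and at 0.505 or 0.559 in D3 and D6T-. Hoxa3, Hoxa5 and Hoxa6 were highest in D6T-, at 3.04, 3.52 and 3.51 FPKM.

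In D6T-, 3 of the 39 genes were at least 2-fold above D0, where 9.42% of the genes kept were: Hoxd3 and Hoxd4, which share a locus, and Hoxd9. This count was near that share. Hoxd4, a gene of the posterior hindbrain and neck, stood at 1.58 FPKM in D0, 2.66 in D3, 4.92 and 3.53 in D6T- and D6T+, 5.01 and 4.78 in D9T- and D9T+, 2.69 and 4.81 in D12S+ and D12S-, 0.92 and 5.27 in D16S+ and D16S-, 0 in iPSCs and 0.591 in mESCs. It was above D0 in every library from D3 to D12 and in D16S-, by 1.20 in D6T- and 1.28 in D16S-, and was listed at 0 in iPSCs. Hoxd8, a trunk gene, stood at 2.47 FPKM in D0, 1.99 in D3, 2.88 and 3.75 in D6T- and D6T+, 2.59 and 2.73 in D9T- and D9T+, 1.85 and 3.37 in D12S+ and D12S-, 1.3 and 5.84 in D16S+ and D16S-, 0.0664 in iPSCs and 0.305 in mESCs. It was highest in D16S-, where it was 0.98 above D0 on the log2 scale. Hoxd9, which acts in the upper limb and lower spine, was under 5 FPKM throughout but went from 1.39 in D0 to 3.94 in D6T- and 4.9 in D16S- (1.30). Hoxd3, which shares its locus with Hoxd4, went from 0.765 to 2.66 and 1.95 FPKM. The posterior Hoxd genes ran the other way: Hoxd10 went from 3.46 FPKM in D0 to 1.73 in D16S-, Hoxd11 from 1.72 to 0.6 and Hoxd13 from 2.22 to 0.708.

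The SSEA-1- cells of day 16 still held a Hox code, of another makeup than that of D0. In D16S-, 1 of the 39 genes, Hoxb9, was 4-fold lower than in D0, where 2.95% of the genes kept were, and 9 were 2-fold lower, where 11.4% were. Against D3 in place of D0, none was 4-fold lower, and with a pseudocount of 0.1 there were 4. Of the 39, 3 were 2-fold higher, Hoxd9 and Hoxd4 among them, where 12.8% of the genes kept were. That count of higher genes was not above the share. Over the 39 genes, 12 were higher and 27 lower, with a median of -0.67 beside a value near 0 over the genes kept. By position, the median difference was 0.25 over the 8 genes of paralogs 1 to 3, -0.47 over the 15 genes of paralogs 4 to 8 and -0.93 over the 16 genes of paralogs 9 to 13. By cluster it was 0.27 in Hoxa, -0.67 in Hoxb, -0.96 in Hoxc and -0.04 in Hoxd. Set to the same total FPKM, the medians were 0.40, -0.43, -0.81 and -0.02, in the same order.

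The makeup of the code moved accordingly, in a measure that no scaling of libraries can change. Hoxd gave 6.68% of the summed Hox FPKM in D0, 15.2% in D6T- and 17.6% in D16S-, and Hoxa gave 24%, 31.8% and 31.1%. The Hoxb share went the other way, from 32.2% to 21.7% and 19.98%, and that of Hoxc from 37.1% to 31.3% and 31.3%. As sums of deposited FPKM, only Hoxd was higher, at 14.5 in D0, 20.1 in D6T- and 21.2 in D16S-. The Hoxa sum went from 52.2 to 42.1 and 37.5 FPKM, so its share rose while its sum fell. Hoxb went from 70.1 to 28.8 and 24.1 FPKM, and Hoxc from 80.8 to 41.4 and 37.7. Paralogs 9 to 13 went from 49.7% in D0 to 37.2% in D16S-. Within paralog groups, group 4 summed to 10.2 FPKM in D0 and 15.2 in D16S-, group 6 to 43.4 and 19.3, and group 11 to 23.3 and 6.83. Muscle markers went from 154 to 19.8 FPKM between the same libraries and fibroblast markers from 7269 to 414. The 6 keratinocyte markers went from 14.2 to 243.7 FPKM, mostly by Sfn (6.79 to 194) and Krt14 (0.0609 to 39.9). Krt5 was at 1.64 in D16S-, while Ivl (6.7 to 3.91) and Trp63 (0.568 to 0.117) went down. The keratinocyte sum was also 185.8 FPKM in D16S+ and 185.3 in iPSCs, so its rise was not particular to D16S-. The 6 leukocyte markers went from 13.2 to 45.4 FPKM, with Ptprc at 0.0269 in D16S-. Of these, Cd74 (1.17 to 24.4) and Csf1r (1.55 to 19.9) went up, while Lyz2 (9.47 to 0.509) went down. The 5 endothelial markers went from 12.5 to 16.2, with Tek up (0.0624 to 7.74) and Cdh5 down (11.8 to 5.77). The 5 neural markers went from 14.8 to 19.3. The part of these cell types in the shift was not tested.

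**Figure D3:**
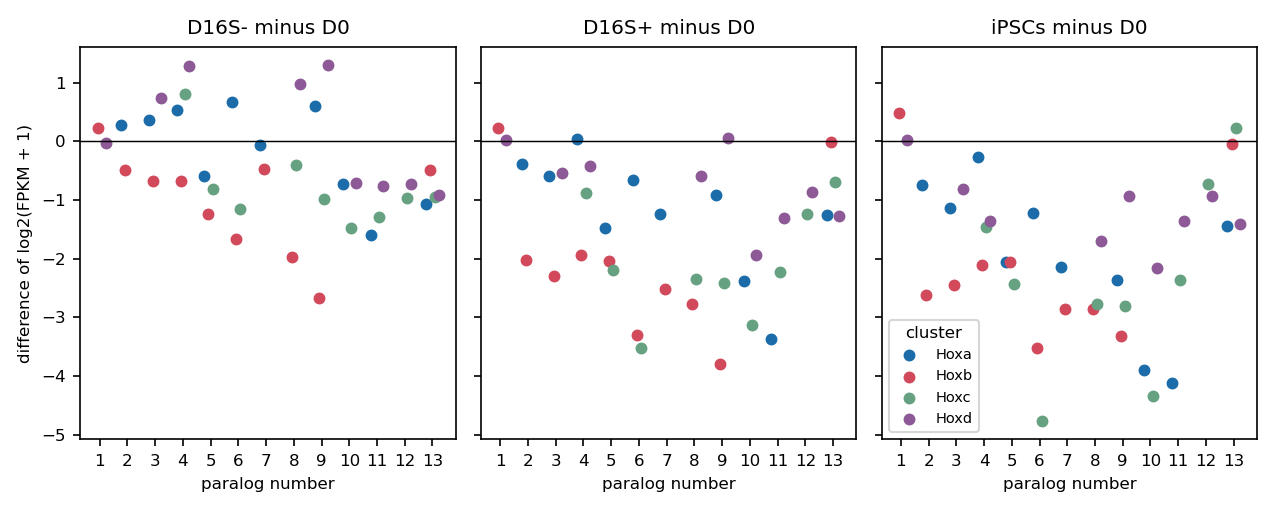
Points give the difference of log2(FPKM + 1) from D0 (y axis) for 38 of the 39 Hox genes by paralog number (x axis), coloured by cluster, in D16S-, D16S+ and iPSCs (1 library each). In D16S- the highest points are Hoxd9 (1.30) and Hoxd4 (1.28), while Hoxb9 lies at -2.67, and in iPSCs Hoxc6 lies lowest, at -4.77.

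In D16S+ most of the code was gone. Of the 39 genes, 15 were 4-fold lower than in D0, where 7.96% of the genes kept were, and 23 were 2-fold lower, where 20.9% were, with a median of -1.27 beside 0.05. The 15 were 7 Hoxb, 6 Hoxc and 2 Hoxa genes. The count of 15 was 6 against D3 in place of D0 and 23 with a pseudocount of 0.1. The median was -2.17 in Hoxb, -2.23 in Hoxc, -0.91 in Hoxa and -0.59 in Hoxd. From D16S+ to iPSCs, 5 genes were 2-fold lower, where 7.77% of the genes kept were: Hoxa10 (-1.52), Hoxc6 (-1.25), Hoxa9, Hoxc10 and Hoxd8. The highest level left in D16S+ was that of Hoxa10, at 2.29 FPKM. Between iPSCs and mESCs, none of the 39 genes was 4-fold apart, where 0.952% of the genes kept were 4-fold lower in iPSCs and 1.23% 4-fold higher, and at 2-fold 1 was, Hoxb13, lower in iPSCs (-1.18), where 7.41% were lower and 6.79% higher.

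On day 6 the sorted fractions differed in sign by cluster, mostly by less than 2-fold. On that day, T- cells had higher levels than T+ cells for 9 of 11 Hoxa genes (median 0.21) and 7 of 9 Hoxd genes (median 0.41). They had them for 0 of 10 Hoxb genes (median -0.36), of which Hoxb1 was 0 in both, and 1 of 9 Hoxc genes (median -0.58). The median over the genes kept was 0.005, and shares of them by sign were not taken. Hoxa3 to Hoxa6 share 1 locus, as do Hoxd3 and Hoxd4, so these members are not separate. The counts were the same when libraries were set to the same total FPKM or scaled by the median of ratios. At 2-fold, 2 genes were lower in D6T-, Hoxb9 (-1.62) and Hoxc8 (-1.17), where 9.47% of the genes kept were. On day 9, 2 genes were 2-fold lower in T- cells, Hoxb9 and Hoxb6, where 6.45% of the genes kept were, and 4 of 11 Hoxa and 4 of 9 Hoxd genes were still higher, a count that was 6 for each when set to the same total. Hoxb9 and Hoxb6 were then less than 2-fold apart. On day 12, 35 of the 39 genes were lower in S+ than in S- cells. The median was -0.51 beside -0.01 over the genes kept. Of the 39, 2 were 2-fold lower, Hoxc6 and Hoxc8, where 3.03% of the genes kept were. Those 2 were less than 2-fold apart at the same total, and with a pseudocount of 0.1 there were 6 such genes on day 6 and 12 on day 12. On day 16, 22 genes were 2-fold lower in S+ cells, where 15.2% of the genes kept were, and 2 were 4-fold lower, Hoxc6 (-2.37) and Hoxb7 (-2.04), where 3.91% were. The median difference was -1.23 over the 39 genes beside -0.02 over the genes kept, and all 4 clusters had medians between -0.96 and -1.44. No Hox gene was 2-fold higher in the route fraction on any of the 4 days, where 2.93%, 1.81%, 4.79% and 11.8% of the genes kept were on days 6, 9, 12 and 16.

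**Figure D4:**
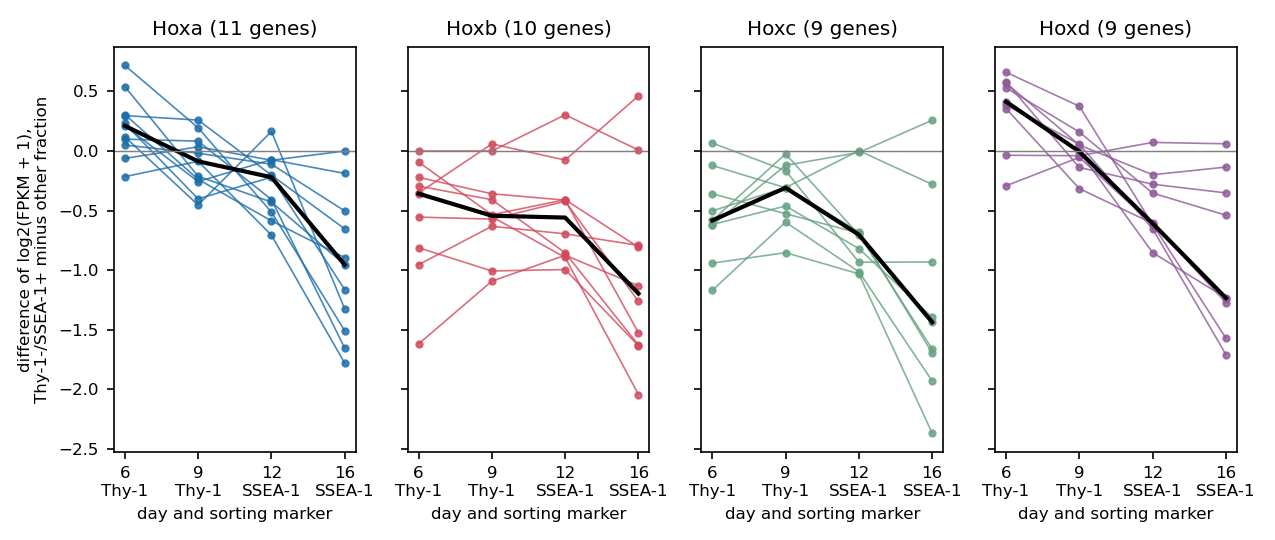
Lines join the difference of log2(FPKM + 1) between the route fraction (Thy-1- or SSEA-1+) and the other fraction (y axis) of each Hox gene on days 6, 9, 12 and 16 (x axis), 1 panel a cluster, with the cluster median in black. On day 6 the medians of Hoxa (0.21) and Hoxd (0.41) lie above 0 and those of Hoxb (-0.36) and Hoxc (-0.58) below, and by day 16 all 4 lie under -0.9.

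The route fraction had lower levels on 4 of 4 days for 16 genes: Hoxa11, Hoxd8, 8 Hoxb genes (Hoxb2 to Hoxb9) and 6 Hoxc genes (Hoxc4 to Hoxc10). The same count was not made over the genes kept. Another 12 were lower on 3 days and 10 on 2 days, among them Hoxa9, Hoxa10, Hoxd4 and Hoxd9, which were higher in T- cells on both Thy-1 days and lower in S+ cells on both SSEA-1 days. Of the 16, Hoxa11, Hoxc10 and Hoxd8 were close to even on day 9 (-0.09, -0.02 and -0.05). Set to the same total FPKM, these 3 were higher in T- than in T+ cells on that day. The sign differed between days 6 and 9 for 12 genes and between days 12 and 16 for 4, and for none of these were both differences as large as 1.5-fold. Fibroblast markers summed to 399.7 FPKM in D6T- and 2659 in D6T+, so T- cells on day 6 held more Hoxa and Hoxd but far less fibroblast marker RNA. Thy1, the gene of the protein sorted on, gave 3.24 and 477 FPKM of these sums.

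Along the route the 31 genes at 1 FPKM or more in D0 went down at different times. Counting from when a gene was 2-fold below D0 and stayed so, 2 were lower from D3 (Hoxa11, Hoxb8) and 4 from D6T- (Hoxb6, Hoxb9, Hoxc6, Hoxc10). Another 6 followed from D9T- (Hoxa13, Hoxb4, Hoxb5, Hoxc9, Hoxc11, Hoxd10) and 6 from D12S+ (Hoxa5, Hoxb3, Hoxb7, Hoxc5, Hoxc8, Hoxd11). A further 4 were lower from D16S+ (Hoxa7, Hoxa10, Hoxb2, Hoxd13) and 6 only in iPSCs (Hoxa3, Hoxa6, Hoxa9, Hoxc4, Hoxd4, Hoxd8). For 3, Hoxc12, Hoxc13 and Hoxd9, no such point was found. Being 2-fold lower is not absence: Hoxc6 was still at 13.5 FPKM in D6T-. By this 2-fold measure, which understates the fall of genes low in D0, the latest genes were Hoxa, Hoxd and Hoxc4. By the level of 1 FPKM the order was another. Only in iPSCs did 9 genes go under it: Hoxa7, Hoxa9, Hoxa10, Hoxb2, Hoxc4, Hoxc6, Hoxc10, Hoxd8 and Hoxd9. From D16S+ on, 12 others were under it, among them Hoxa3, Hoxa6 and Hoxd4. Hoxc12 was under it from D6T- on, and Hoxb9 and Hoxc13 were above it in iPSCs. D3 had 4 genes 2-fold lower than D0, where 8.67% of the genes kept were. In D6T-, 6 were 2-fold lower, where 14.5% were, and 3 were 2-fold higher, where 9.42% were. These D3 and D6T- counts were near those shares, so they are not particular to Hox genes. How many of the genes kept first went 2-fold lower at each step was not counted. From D12S+ to D16S+, 11 genes were 2-fold lower, where 5.32% of the genes kept were. From D12S- to D16S- none was 2-fold lower or higher, where 0.536% and 2.03% were. From D9T- through D12S+ and D16S+ to iPSCs, 25 of the 39 genes were lower at each step, a count not made over the genes kept.

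Hoxc13 and Hoxb13 had their highest levels in mESCs. Hoxc13, a gene of hair and nails, stood at 1.28 FPKM in D0, 1.51 in D3, 0.167 and 0.796 in D6T- and D6T+, 0.0921 and 0.187 in D9T- and D9T+, 0.251 and 0.262 in D12S+ and D12S-, 0.412 and 0.181 in D16S+ and D16S-, 1.67 in iPSCs and 3.76 in mESCs. Hoxb13, a gene of the tail and prostate, stood at 0.673 FPKM in D0, 0.423 in D3, 0.152 and 0.471 in D6T- and D6T+, 0.254 and 0.204 in D9T- and D9T+, 0.228 and 0.295 in D12S+ and D12S-, 0.652 and 0.198 in D16S+ and D16S-, 0.615 in iPSCs and 2.65 in mESCs. In iPSCs Hoxb13 was near its D0 level (-0.05, and 0.04 when set to the same total FPKM), and Hoxc13 was 0.22 above its own. Paralog group 13 as a whole summed to 6.21 FPKM in D0, 1.52 in D16S-, 2.61 in iPSCs and 7.42 in mESCs. All intervals of both genes start at 0.

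Halr1, a long noncoding RNA gene outside the low-numbered end of the Hoxa cluster, lay at chr6:52052948-52063683 and stood at 0 FPKM in D0, 0.0764 in D3, 0.147 and 0.0911 in D6T- and D6T+, 2.33 and 2.7 in D9T- and D9T+, 10.9 and 2.67 in D12S+ and D12S-, 8.53 and 2.3 in D16S+ and D16S-, 15.4 in iPSCs and 13.8 in mESCs. It was listed at 0 in D0 and higher in S+ than in S- cells on days 12 and 16. Evx1, a homeobox gene 47.5 kb beyond Hoxa13 at the other end, reached 1.29 FPKM in iPSCs and 0.0326 in mESCs. The flanks of the clusters did not follow the Hox genes: Skap2 stood at 12.6 FPKM in D0 and 14.4 in iPSCs, Mtx2 at 14.7 and 8.47, and Calcoco1 at 24.8 and 25.6. Of the 19 genes listed for the Hox regions that the table held, 1 was 4-fold lower in iPSCs than in D0 (Hoxa11os) and 1 was 4-fold higher (Halr1). Hotair and Hottip, long noncoding RNAs of Hoxc and Hoxa, did not pass 0.237 and 0.0469 FPKM, and the 6 microRNA genes were listed at 0 in every library.

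**Figure D5:**
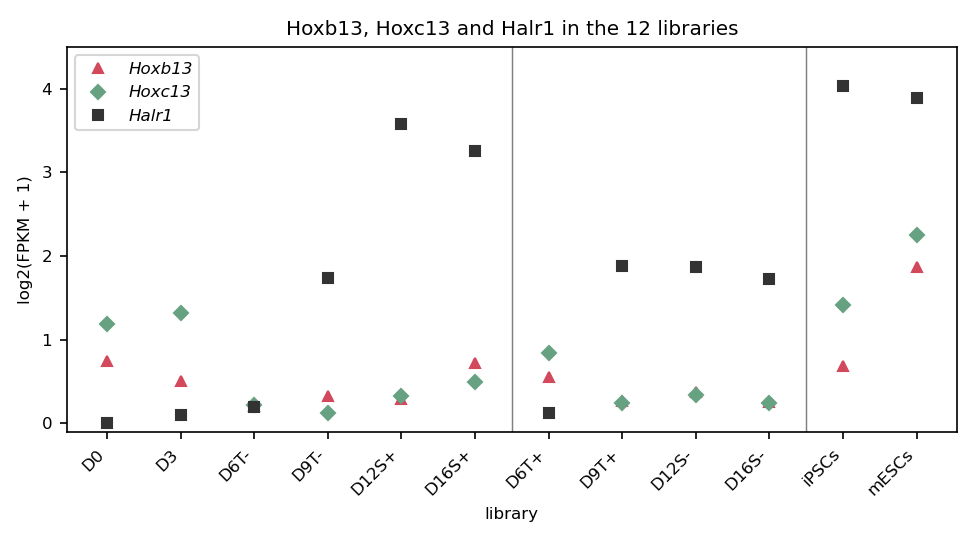
Points give log2(FPKM + 1) (y axis) of Hoxb13, Hoxc13 and the neighbouring noncoding gene Halr1 in the 12 libraries (x axis, 1 library each; grey lines part route, off-route and pluripotent libraries). Halr1 goes from 0 in D0 to 15.4 FPKM in iPSCs, and Hoxc13 is highest in mESCs, at 3.76 FPKM.

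The TALE homeodomain proteins, which bind DNA together with Hox proteins, changed in part. Of 9 genes, 4 were 2-fold lower in iPSCs than in D0 and 1 was 2-fold higher, with a median of -0.59, where 21.6% of the genes kept were 2-fold lower and 18.7% higher. Meis3 was at 19.2 FPKM in D0, 1.21 in D16S+ and 4.73 in iPSCs, and Meis1 at 7.64, 1.85 and 1.84. Pbx2 (28.8 FPKM in D0, 38.2 in iPSCs) and Pknox1 (8.24 and 8.66) kept their levels, and Pbx4 was at 1.35 and 4.85.

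Among 11 regulators that act upstream of Hox genes, 1 was 4-fold higher in iPSCs than in D0 and 1 was 4-fold lower, where 6.19% and 9.2% of the genes kept were. The higher was Cdx1, a caudal homeobox activator of Hox genes, which was listed at 0 in D0 and at 1.16 FPKM in D12S+, 2.75 in D16S+, 28 in iPSCs and 19.8 in mESCs. The lower was Gdf11, a secreted factor that sets posterior identity, at 21.9 FPKM in D0, 8.75 and 24.2 in D6T- and D6T+, and 1.67 in iPSCs. Cdx1 was thus high in the libraries where the Hox genes were low.

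Some other transcription factors of limb and trunk position were lower in iPSCs as well. Of 32 genes, 8 were 4-fold lower in iPSCs than in D0 and 2 (Sall1, Hand1) 4-fold higher, where 9.2% and 6.19% of the genes kept were, with a median of -1.14. Prrx1, a limb and skeletal mesenchyme factor, stood at 44.4 FPKM in D0, 24.7 in D3, 18.1 and 52.8 in D6T- and D6T+, 12.7 and 56.4 in D9T- and D9T+, 10.3 and 27.8 in D12S+ and D12S-, 2.61 and 30.6 in D16S+ and D16S-, 0.197 in iPSCs and 0.0837 in mESCs. Tbx15, a trunk and limb factor, was at 32.3 FPKM in D0, 8.86 in D16S- and 0.429 in iPSCs, and Pitx1, a hindlimb factor, at 14.7, 1.62 and 0.237. Prrx1 was held in D16S- at 30.6 FPKM, close to its D3 level, while Pitx1 was not.

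Genes of the Polycomb and trithorax groups, the chromatin regulators that hold Hox genes off or on, were in part higher in iPSCs. Of 16 genes, 5 were 4-fold higher in iPSCs than in D0, where 6.19% of the genes kept were, none was 4-fold lower, and the median was 1.38. Cbx7, a Polycomb chromodomain protein, stood at 1.67 FPKM in D0, 2.66 in D3, 3.07 and 1.89 in D6T- and D6T+, 8.48 and 4.98 in D9T- and D9T+, 56.6 and 10.6 in D12S+ and D12S-, 77.9 and 14.1 in D16S+ and D16S-, 95.1 in iPSCs and 80.1 in mESCs. Phc1, a subunit of the same repressive complex, was at 11.1 FPKM in D0, 170.3 and 33.3 in D16S+ and D16S-, and 177 in iPSCs, and Jarid2, which joins the methyltransferase complex, at 5.26, 77.3, 21.9 and 108. All 3 were higher in S+ than in S- cells on day 16, the comparison in which 22 Hox genes were 2-fold lower. Bmi1 was at 3.19 FPKM in D0 and 1.4 in iPSCs, and the trithorax genes Kmt2a (7.11 and 12.6) and Men1 (44.2 and 44.8) were not 2-fold apart.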

How the data were processed

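RNA-Seq was done on 12 libraries, 1 per condition. Per the study's methods and the submitters' processing notes, the authors aligned reads to mm9 with STAR, removed reads with more than 2 mismatches or more than 1 locus, and computed FPKM with Cuffdiff. Tool versions are not given in the sources used here. The deposited FPKM values per gene, with an interval for each, were used as they stood, and the authors' comparisons were not used. Groups came from the sample titles. Differences were taken as log2(FPKM + 1), with python 3.11.15, numpy 2.4.6 and pandas 2.3.3. With 1 library per condition no test was run, and calls are folds: 4-fold between end points and 2-fold between sorted fractions, with the other fold also given in the text. A gene was on at 1 FPKM. Background shares are over the 14178 genes at 1 FPKM in at least 1 library. They were taken at 2-fold and 4-fold only, so counts by sign alone have no such share beside them. Genes at 5 FPKM in any library are given in every library, and the others by ranges. The 39 genes were counted whole, though some genes are not reported here by name, and the members and lists were chosen with earlier results of these data known. Alternatives changed the pseudocount (0.1), the level (0.5, 5 FPKM), the fold, the scaling, and whether deposited intervals lay apart. Counting functions were tested on simulated data. Promoter windows came from RefSeq and were matched to mm9 by sequence. The depth behind each value is not given as reads, so no counting interval could be made.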

Additional observations from a re-analysis of the deposited data

How the results depend on the processing

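Of 85 recomputed counts, medians and shares, 52 stayed within 1.5 times or the stated margin, 33 moved and 0 reversed. With the level at 5 FPKM, Hox genes on numbered 13 in D0, 7 in D3, 10 in D16S- and 0 in D16S+, iPSCs and mESCs, and at 0.5 FPKM 19 in D16S+, 5 in iPSCs and 13 in mESCs. With a pseudocount of 0.1, 32 genes were 4-fold lower than D0 in iPSCs, 23 in D16S+ and 4 in D16S-, 6 and 12 were 2-fold lower in D6T- and D12S+ than in the other fraction, 2 were 4-fold apart between iPSCs and mESCs, and the medians were -3.77 (iPSCs minus D0), -2.58 (D16S+ minus D0) and -2.02 (D16S+ minus D16S-). At 2-fold in place of 4-fold, 23 were lower in D16S+, 9 in D16S- and 1 was apart between the lines. At 4-fold in place of 2-fold, 0 were lower in D6T-, D9T- and D12S+ and 2 in D16S+ than in the other fraction. By deposited intervals wholly apart, 0 were lower than D0 in iPSCs, D16S+ or D16S-. Set to the same total FPKM, 0 were 2-fold lower in D9T- and in D12S+ than in the other fraction. That scaling moved the median of the genes kept by 0.16 (iPSCs minus D0), 0.30 (D16S+ minus D0) and 0.19 (D16S- minus D0), and the Hox medians were then -1.86, -1.09 and -0.42. None of 17 results moved with median-of-ratios scaling. Of 351 single-gene differences, 71 moved, all with the pseudocount of 0.1, and 0 reversed. A change of sign counted as reversed only where the main difference was at least 1.5-fold. Smaller differences did change sign at the same total FPKM. Hoxa7 went from -0.07 to 0.18 (D16S- minus D0) and Hoxb13 from -0.05 to 0.04 (iPSCs minus D0).

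After seeing the data, D3 was put in place of D0. Then 12 genes were 4-fold lower in iPSCs, 6 in D16S+ and 0 in D16S-, and the iPSC median was -1.53. With mESCs in place of iPSCs the count was 18 and the median -1.63. With D12S- in place of D16S-, 24 were 2-fold lower in D16S+. So the counts against D0 rest on 1 library, D0, while the direction of the medians did not change. No paired analysis was possible because each condition has 1 library. Low values limit what can be seen: most Hox genes are within a few FPKM of 0 in the pluripotent lines.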
